A study of Mus musculus with 6 samples.

Results

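The genes described here encode enzymes of cholesterol synthesis and of fatty acid synthesis, and the proteins that regulate both pathways through SREBP. They were taken by symbol from a list of 31 genes, and all 31 were among the 24498 gene rows of the count table. The list has 17 enzymes of the sterol arm, 9 genes of the fatty acid arm, and 5 regulators and sterol carriers. RNA was measured by bulk sequencing in 6 libraries of marker-positive cells sorted from the prostates of male mice, in 3 groups of 2 libraries. The Clu intact group came from mice in which tamoxifen-inducible Cre under control of Clu, which encodes clusterin, a secreted chaperone, switched on the red reporter tdTomato at the Rosa26 locus, and these males were left uncastrated. The Nkx castrate and Nkx intact groups came from mice in which the same kind of Cre, with the driver of the Nkx line, switched on the yellow reporter EYFP at the same locus. For the Nkx castrate group, males underwent castration when 8 weeks old and tissue was taken after 4 weeks, while the Nkx intact and Clu intact males kept their testes over the same time. The labels do not say when Cre was induced or whether each library is a different animal, so p-values here cover only the spread among these libraries, which could be technical. Driver, mouse line and reporter all differ between Clu intact and both Nkx groups, so a difference between cell populations and a difference between lines cannot be told apart in those comparisons. Clu intact and Nkx castrate differ in castration as well.

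Cholesterol is built from acetyl-CoA through mevalonate, the isoprenoids and squalene, which is closed into lanosterol and then trimmed to cholesterol in a series of steps. Fatty acids are built from the same acetyl-CoA by acetyl-CoA carboxylase and fatty acid synthase, then elongated and desaturated. Both pathways are switched on by the SREBP transcription factors, which Scap carries from the endoplasmic reticulum to the Golgi for cleavage when sterol is low and which Insig proteins hold back when it is high. SREBP2 (Srebf2) acts mainly on sterol genes and SREBP1 (Srebf1) mainly on fatty acid genes. The prostate is rich in cholesterol, and androgen is known to raise lipid synthesis in prostate epithelial and cancer cells.

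Total counts per library lay between 10220118 and 17412874, so that 1 count was worth 0.0561 to 0.0988 CPM (counts scaled to library totals that were adjusted by the TMM factors of the fit). The lowest count of any member in any library was 28 (Elovl6), and all 31 passed the filter on low counts. Luminal keratins were abundant in every library (Krt8 and Krt18 between 561 and 2590.3 CPM). RNA of other cell types differed across libraries. Endothelial markers (8 genes) added up to 866 and 349.7 CPM for Clu intact, 328 and 44.5 CPM for Nkx castrate and 51.7 and 30.7 CPM for Nkx intact. For 10 markers of fibroblasts and smooth muscle the sum was 2137 CPM in Nkx castrate 1, and the other 5 libraries ranged over 538 to 749 CPM. Nkx castrate 1 thus stood apart in fibroblast and smooth muscle RNA, while endothelial RNA was high in both Clu intact libraries and in Nkx castrate 1. Results that rest on Nkx castrate 1 or Clu intact 1 are given below without them where that changes a call. A fit without Clu intact 1 keeps Clu intact 2 and its endothelial RNA.

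The promoters of most sterol enzymes carried a pair of short motifs. RefSeq promoter windows of 300 bases (250 before to 50 after the start site, build GRCm38.p6) were at hand for 24 of the 31 genes. Sites were searched on both strands for CCAAT, the site of NF-Y, for GGGCGG, a GC box bound by Sp1, and for TCACNCCAC, a form of the sterol regulatory element that SREBP binds. NF-Y and Sp1 are known partners of SREBP at sterol gene promoters. CCAAT was in 14 of 14 sterol arm promoters (100%) and GGGCGG in 13 of 14 (92.9%), against 41.1% and 38.2% of 27025 genes in the same table. The fatty acid arm had CCAAT in 3 of 6 and GGGCGG in 2 of 6 (33.3%), and the regulators had CCAAT in 3 of 4 and GGGCGG in 4 of 4. TCACNCCAC was found in 1 member, Hmgcs1, and in 1.44% of all genes. Fdps, Fdft1, Sqle, Scd1, Scd2, Fads1 and Stard4 had no window in the table. A match is a description of the letters and not of a bound site. The 180 bases before the start site are printed, 5′ to 3′ on the gene's strand, for 4 genes that were lower in Clu intact and share the motif pair in their windows (Hmgcs1, Cyp51, Msmo1, Insig1), for Ebp, which carries the pair and was higher in Clu intact than in Nkx castrate, and for Fads2, a fatty acid desaturase with no match to any of the 3 motifs in these 180 bases. Capitals mark matches on either strand (ATTGG and CCGCCC are the reverse forms). The stretches lie at chr13:119690171-119690350 (plus strand), chr5:4104698-4104877 (minus), chr8:64733579-64733758 (minus), chr5:28071232-28071411 (plus), chrX:8193513-8193692 (minus) and chr19:10101504-10101683 (minus).
Hmgcs1: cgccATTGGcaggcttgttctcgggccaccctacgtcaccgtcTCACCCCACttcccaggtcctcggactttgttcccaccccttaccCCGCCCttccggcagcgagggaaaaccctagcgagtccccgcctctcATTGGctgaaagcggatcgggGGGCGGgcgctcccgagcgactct
Cyp51: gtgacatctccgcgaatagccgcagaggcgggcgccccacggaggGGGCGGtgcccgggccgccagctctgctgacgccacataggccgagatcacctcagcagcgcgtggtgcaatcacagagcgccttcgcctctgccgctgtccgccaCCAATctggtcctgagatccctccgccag
Msmo1: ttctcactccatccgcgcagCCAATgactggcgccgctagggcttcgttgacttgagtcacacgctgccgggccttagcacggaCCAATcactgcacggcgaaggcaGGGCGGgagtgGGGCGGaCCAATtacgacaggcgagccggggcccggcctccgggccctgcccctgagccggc
Insig1: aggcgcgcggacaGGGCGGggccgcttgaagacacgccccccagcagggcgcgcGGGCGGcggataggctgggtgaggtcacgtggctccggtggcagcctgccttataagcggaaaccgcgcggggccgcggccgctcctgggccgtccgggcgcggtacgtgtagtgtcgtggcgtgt
Ebp: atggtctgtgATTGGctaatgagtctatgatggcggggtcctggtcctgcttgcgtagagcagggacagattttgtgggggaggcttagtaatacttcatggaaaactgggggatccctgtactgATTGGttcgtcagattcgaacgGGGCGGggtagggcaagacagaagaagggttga
Fads2: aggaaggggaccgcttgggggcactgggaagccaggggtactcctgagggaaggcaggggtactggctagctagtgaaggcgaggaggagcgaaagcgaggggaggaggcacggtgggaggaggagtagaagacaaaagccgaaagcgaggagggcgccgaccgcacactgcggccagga
The Hmgcs1 stretch holds the TCACNCCAC match, which starts 137 bases before the start site, between CCAAT matches in the reverse form on either side. Msmo1 has 3 CCAAT and 2 GGGCGG matches, and Cyp51 has 1 of each. The CCAAT match of Insig1 and the GGGCGG match of Fads2 lie further upstream, at 216 and 186 bases before the start.

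The sterol arm was lower as a sum in Clu intact than in both Nkx groups, while the fatty acid arm was not. The 17 sterol enzymes added up to 299.5 and 349 CPM for Clu intact, 519.8 and 638 CPM for Nkx castrate and 522 and 611 CPM for Nkx intact. Neither Clu intact library reached the lowest Nkx library, and the castrate and intact Nkx libraries overlapped. The 9 fatty acid genes added up to 1495 and 1756 CPM for Clu intact, 1321 and 1697 CPM for Nkx castrate and 1595 and 1412 CPM for Nkx intact, with every pair of groups overlapping. Such sums rest mostly on abundant genes, here Scd2 and Fasn (means of 630 and 537 CPM in Clu intact, 578 and 355 CPM in Nkx intact). By median log2 fold change against Nkx intact, both arms were lower in Clu intact (-0.81 for the sterol arm, -0.56 for the fatty acid arm). Against Nkx castrate the medians were -0.70 and -0.08. In bulk RNA, fewer cells of a type that makes a transcript and less of it per cell cannot be told apart. The plot of summed levels sets the arms beside basal markers, which added up to 2979 and 3152 CPM for Clu intact, 5103 and 3163 CPM for Nkx castrate and 5229.7 and 5402 CPM for Nkx intact, and beside the endothelial markers given above. Of the 9 basal markers, 4 fell and 0 rose in Clu intact against Nkx intact, and 2 fell and 0 rose in each of the other comparisons. Over all tested genes 5% fell in Clu intact against Nkx intact, 4.59% after castration and 8.1% in Clu intact against Nkx castrate. The part of either cell type in the sterol difference was not tested.

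**Figure D1:**
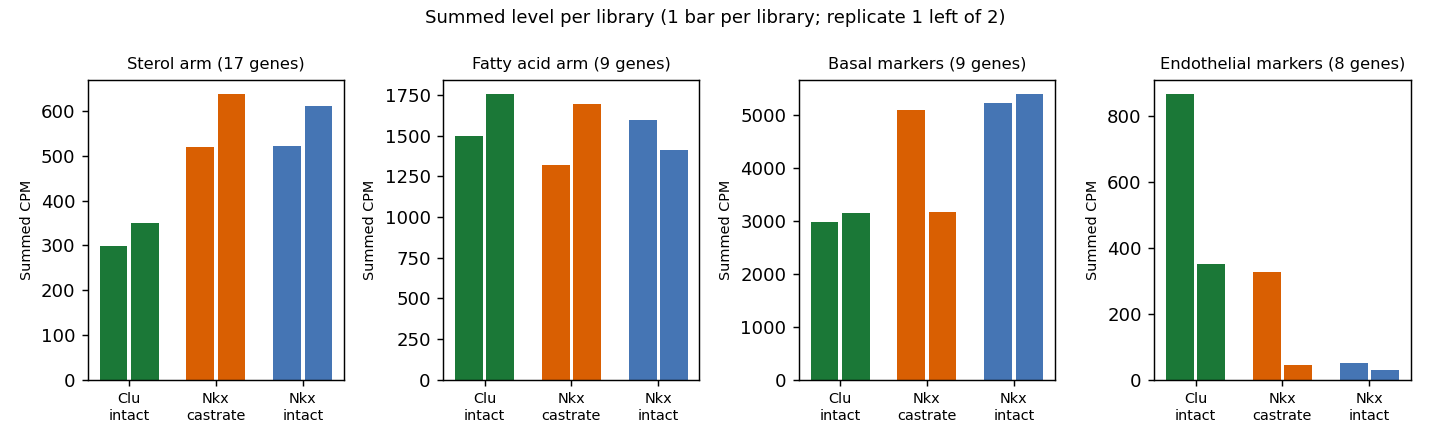
Summed level in CPM of the 17 sterol enzymes, the 9 fatty acid genes, 9 basal and 8 endothelial markers, with 1 bar for each of the 6 libraries. The sterol arm of both Clu intact libraries (299.5 and 349 CPM) is below that of all 4 Nkx libraries, and the fatty acid arm overlaps between groups.

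Levels between genes were compared per length (mean CPM per kb of the longest principal transcript in GENCODE M21). In the sterol arm the C4-methyl sterol oxidase Msmo1 was the most abundant transcript in both Nkx groups, at 34.5 and 57.1 CPM per kb in Nkx castrate and 43.9 and 52.4 CPM per kb in Nkx intact. In Clu intact it had 13.4 and 15.2 CPM per kb, below Ebp, the isomerase of a late step, at 18.9 and 23.2 CPM per kb, and the libraries of these genes did not overlap. In the fatty acid arm Scd2, a stearoyl-CoA desaturase, was the most abundant in all groups (113 and 118 CPM per kb for Clu intact, 73.8 and 111 for Nkx castrate and 114 and 97.3 for Nkx intact), and the elongase Elovl6 the least abundant (0.553 and 0.443 CPM per kb for Clu intact, 0.849 and 0.919 for Nkx castrate and 2.22 and 1.06 for Nkx intact). Among the regulators Srebf1 had the highest mean in each group, although Nkx intact 2 (41.1 CPM per kb for Srebf1) was close to that library's 39.1 CPM per kb for Srebf2.

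The comparison of Clu intact with Nkx intact sets the marked populations of uncastrated prostates side by side. Of the 17 sterol enzymes, 5 fell in Clu intact and 0 rose, against 5% of all 13846 tested genes that fell and 6.29% that rose. The 5 were Hmgcs1, Fdft1, Sqle, Cyp51 and Msmo1, which enter the pathway at its start (HMG-CoA synthase), form squalene, oxidise it and remove the methyl groups of lanosterol. Their levels in Clu intact were 2-fold to 3.37-fold lower. The median log2 fold change of the arm was -0.81, against -0.01 over all genes tested. Libraries of the groups did not overlap for 12 enzymes that were lower and 4 that were higher in Clu intact, while over all genes 31.3% were lower and 31.9% higher without overlap.

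Msmo1 had 27.3 and 31 CPM in Clu intact, against 89.7 and 107 CPM in Nkx intact, a log2 fold change of -1.75, SE 0.27. Sqle, the squalene epoxidase and a rate-limiting enzyme of the pathway, had 21.3 and 26.2 CPM in Clu intact, against 47.8 and 77 CPM in Nkx intact (log2 fold change -1.39, SE 0.27). Fdft1, squalene synthase, had 26.8 and 34.3 CPM in Clu intact, against 71.5 and 66.3 CPM in Nkx intact (log2 fold change -1.17, SE 0.20). In these 3 genes both Clu intact libraries were below both Nkx intact libraries. Lanosterol demethylase, Cyp51, had 35.8 and 44.6 CPM in Clu intact, against 72 and 94.8 CPM in Nkx intact (log2 fold change -1.05, SE 0.26). Hmgcs1 had 32.6 and 35.6 CPM in Clu intact, against 64.2 and 71.8 CPM in Nkx intact, 2-fold lower with an SE of 0.26 on the log2 scale. With Benjamini-Hochberg adjustment over all tested genes, edgeR's quasi-likelihood test gave an adjusted p of 0.00657 for Msmo1, 0.0102 for Fdft1, 0.0168 for Sqle, 0.0381 for Cyp51 and 0.045 for Hmgcs1. None of the 5 calls held in every fit with a library left out. A fit without a library of Clu intact or Nkx intact leaves 1 library there, and fewer of all tested genes passed in such fits. A lost call therefore does not single out these enzymes. The 5 enzymes had log2 fold changes between -1.86 and -0.84 in the fits with a library left out.

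The other 12 sterol enzymes did not pass the test. The mevalonate and isoprenoid steps had log2 fold changes of -0.35 (mevalonate kinase, Mvk), -0.25 (Pmvk), -0.81 (Mvd), -0.88 (the isopentenyl diphosphate isomerase Idi1) and -0.83 (farnesyl diphosphate synthase, Fdps) in Clu intact against Nkx intact. In all 5 the Clu intact libraries were below the Nkx intact libraries, for instance 8.18 and 7.81 CPM in Clu intact, against 14.8 and 14.7 CPM in Nkx intact, for Idi1. Lss, which closes the ring, had 20.1 and 24.9 CPM in Clu intact, against 35.8 and 38 CPM in Nkx intact (log2 fold change -0.71, SE 0.25, adjusted p 0.121 in edgeR's test). The late steps had values on both sides. The reductase Tm7sf2 and the ketosteroid reductase Hsd17b7 had log2 fold changes of -0.31 and -1.05, the isomerase Ebp 0.51 and the desaturase Sc5d 0.07. Nsdhl, which works with Msmo1 in removing the methyl groups, had 9.79 and 13.8 CPM in Clu intact, against 4.59 and 5.73 CPM in Nkx intact (log2 fold change 1.19, SE 0.46, adjusted p 0.149 in edgeR's test, and 0.0336 without Nkx castrate 1). Dhcr7, the reductase of 7-dehydrocholesterol, had 10.1 and 12.5 CPM in Clu intact, against 6.12 and 4.74 CPM in Nkx intact (log2 fold change 1.06, SE 0.42, adjusted p 0.157). For Nsdhl and Dhcr7 both Clu intact libraries were above both Nkx intact libraries.

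**Figure D2:**
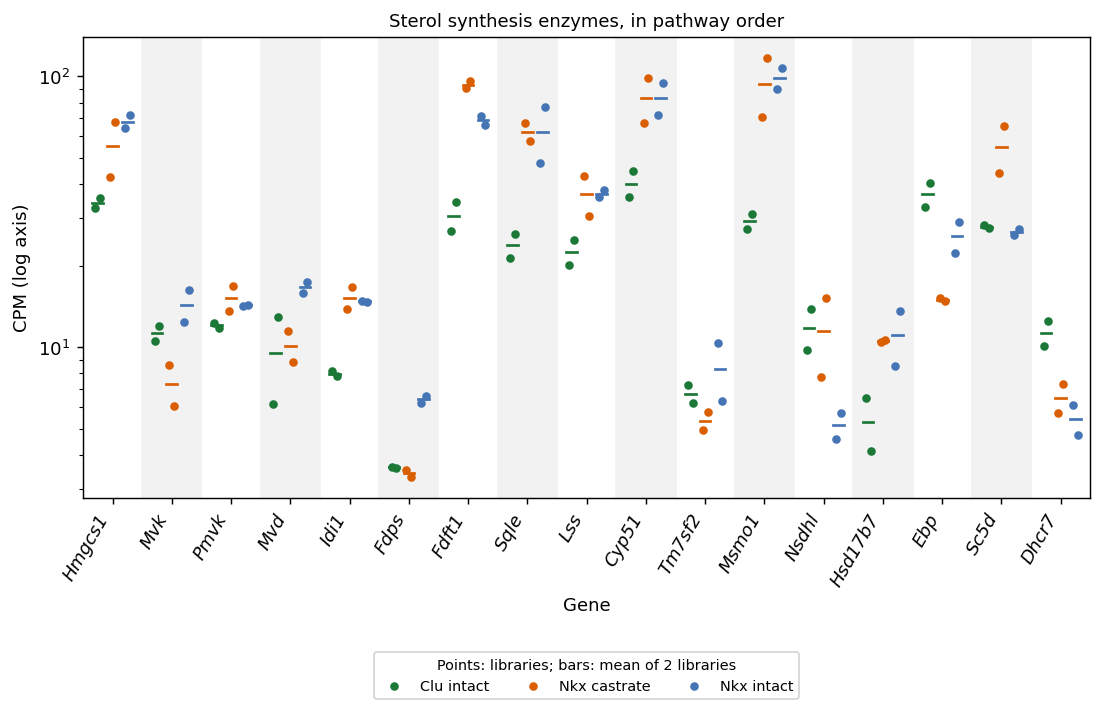
CPM on a log axis of the 17 sterol enzymes in pathway order, with 1 point per library and a bar at the mean of 2 libraries. Clu intact lies below both Nkx groups for Fdft1, Sqle, Cyp51 and Msmo1 (27.3 and 31 CPM for Msmo1, against 70.6 and 117 CPM for Nkx castrate and 89.7 and 107 CPM for Nkx intact), and above both for Ebp.

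Among the regulators, Insig1 fell in Clu intact and the other 4 did not pass the test. Insig1, which retains the SREBP-Scap complex in the endoplasmic reticulum and is itself an SREBP target, had 19.7 and 15.4 CPM in Clu intact, against 41.7 and 52.1 CPM in Nkx intact, a 2.66-fold lower level (log2 fold change -1.41, SE 0.24, adjusted p 0.00935 in edgeR's test). Its groups did not overlap, and the call was lost without Clu intact 1, Clu intact 2 or Nkx intact 2 (adjusted p up to 0.113). Srebf2 had 138 and 146 CPM in Clu intact, against 216 and 199 CPM in Nkx intact, which did not overlap (log2 fold change -0.55, SE 0.16, adjusted p 0.0653 in edgeR's test and 0.0159 in DESeq2). Srebf1 had 184 and 178 CPM in Clu intact, against 313 and 176 CPM in Nkx intact (log2 fold change -0.44, SE 0.26), and the groups overlapped, with Nkx intact 2 at the Clu intact level. The escort protein Scap had 49.7 and 54.3 CPM in Clu intact, against 48.3 and 72.5 CPM in Nkx intact (log2 fold change -0.22, SE 0.25). Stard4, a cytosolic cholesterol carrier, had 43.4 and 44.4 CPM in Clu intact, against 40.7 and 48.5 CPM in Nkx intact (log2 fold change -0.02, SE 0.22). Scap and Stard4 overlapped between these groups.

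In the fatty acid arm 3 of the 4 desaturases and 1 elongase changed. Of 9 genes, Scd1, Fads1 and Fads2 fell and Elovl5 rose in Clu intact against Nkx intact, with a median log2 fold change of the arm of -0.56 and 5 lower and 2 higher genes without overlap. Over all tested genes 5% fell and 6.29% rose in this comparison, and 31.3% were lower and 31.9% higher without overlap, so the 2 of 9 higher genes were a smaller share than over all genes. Fads1, the delta-5 desaturase of polyunsaturated fatty acids, had 8.27 and 8.47 CPM in Clu intact, against 51.8 and 50.4 CPM in Nkx intact, a 6.1-fold lower level (log2 fold change -2.61, SE 0.22). Fads2, the delta-6 desaturase that precedes it, had 8.35 and 9.31 CPM in Clu intact, against 55.5 and 25.3 CPM in Nkx intact (log2 fold change -2.19, SE 0.37). Both desaturases were low in both Clu intact libraries, while Nkx intact 2 was the lower of the Nkx intact libraries for Fads2. Elovl5, which elongates the products of these desaturases, had 97.2 and 114 CPM in Clu intact, against 39.8 and 40.6 CPM in Nkx intact, a 2.63-fold higher level (log2 fold change 1.39, SE 0.24). Scd1, the desaturase that makes monounsaturated fatty acids, had 94.9 and 117 CPM in Clu intact, against 224 and 177 CPM in Nkx intact (log2 fold change -0.93, SE 0.20). Neither gene overlapped between the groups. Adjusted p in edgeR's quasi-likelihood test was 0.000673 for Fads1, 0.00943 for Elovl5, 0.00986 for Fads2 and 0.026 for Scd1. The Fads1 call held when any library was left out (adjusted p up to 0.0138). Fads2 was lost without Clu intact 1, Clu intact 2 or Nkx intact 1 (adjusted p up to 0.0723), and its log2 fold change was -1.50 without Nkx intact 1. Elovl5 was lost without Clu intact 2, Nkx intact 1 or Nkx intact 2 (up to 0.0929), and Scd1 when any 1 of the 4 libraries compared was left out (up to 0.222).

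The genes that build the palmitate chain did not pass the test in this comparison. ATP citrate lyase, Acly, which supplies cytosolic acetyl-CoA, had 173 and 192 CPM in Clu intact, against 152 and 175 CPM in Nkx intact (log2 fold change 0.16, SE 0.18). Acetyl-CoA carboxylase, Acaca, had 35.6 and 52.8 CPM in Clu intact, against 58.4 and 71.6 CPM in Nkx intact (log2 fold change -0.56, SE 0.25, adjusted p 0.197). Fatty acid synthase, Fasn, had 456 and 618 CPM in Clu intact, against 375 and 335 CPM in Nkx intact (log2 fold change 0.60, SE 0.23, adjusted p 0.142 in edgeR's test). Acaca was lower and Fasn higher in both Clu intact libraries than in both Nkx intact libraries. The Fasn difference passed in the fit of these groups alone (adjusted p 0.0247), with no low-count filter (0.0455) and without Nkx castrate 1 or 2. Scd2 had a log2 fold change of 0.13 and overlapped. Elovl6, which elongates palmitate, had 3.29 and 2.63 CPM in Clu intact, against 13.2 and 6.32 CPM in Nkx intact (log2 fold change -1.72, SE 0.54, adjusted p 0.085 in edgeR's test and 0.0309 in DESeq2). Scd1 and Scd2 are similar copies, and how reads with several alignments were counted is not given.

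**Figure D3:**
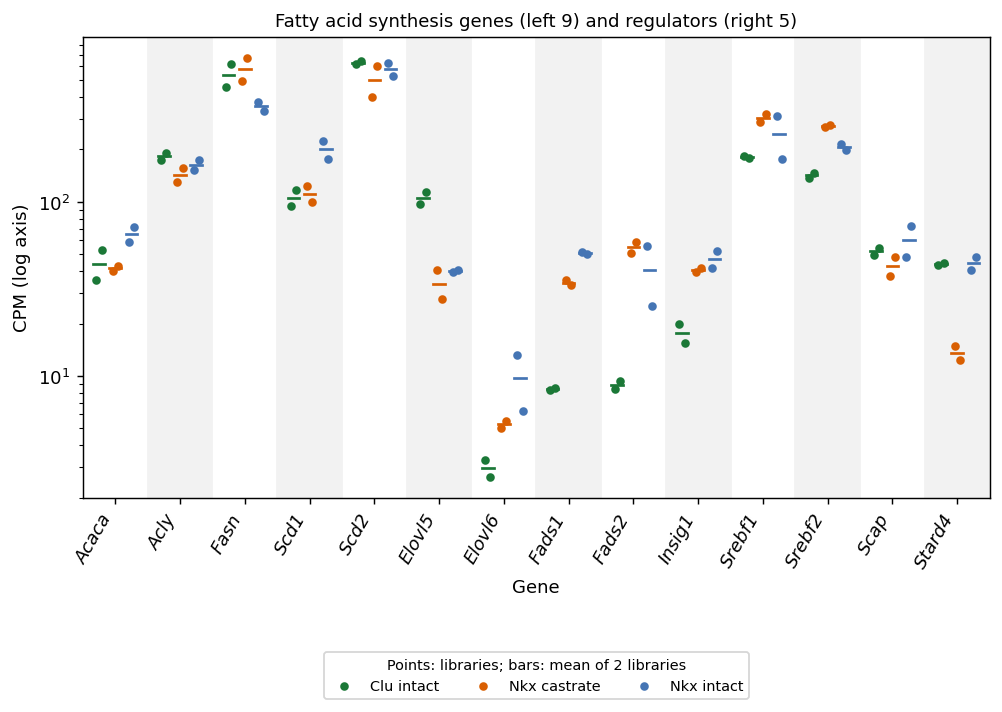
CPM on a log axis of the 9 fatty acid genes and the 5 regulators, with 1 point per library and a bar at the mean of 2 libraries. Clu intact stands apart at Fads1 (8.27 and 8.47 CPM) and Fads2 (8.35 and 9.31 CPM) below the Nkx groups and at Elovl5 (97.2 and 114 CPM) above them, and Nkx castrate stands below both intact groups at Stard4 (14.9 and 12.3 CPM).

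Clu intact cells were also set against Nkx castrate cells. These groups differ in castration as well as in driver, mouse line and reporter, and the comparison cannot tell these apart. The libraries of Clu intact are the same as above, so the comparisons are not independent. In the sterol arm Fdft1, Sqle, Cyp51, Msmo1 and Sc5d fell and Ebp rose in Clu intact against Nkx castrate (5 and 1 of 17, against 8.1% and 8.82% of all tested genes), with a median log2 fold change of -0.70 against a median of 0.00 over all genes. Of the enzymes, 10 were lower and 5 higher without overlap, against 30% and 31.5% of all genes. Msmo1 had 27.3 and 31 CPM in Clu intact, against 70.6 and 117 CPM in Nkx castrate (log2 fold change -1.68, SE 0.27). Fdft1 had 26.8 and 34.3 CPM in Clu intact, against 90.2 and 95.7 CPM in Nkx castrate (log2 fold change -1.60, SE 0.20), the clearest separation in the arm by adjusted p. Sqle had 21.3 and 26.2 CPM in Clu intact, against 67.2 and 57.7 CPM in Nkx castrate (log2 fold change -1.40, SE 0.27). The lower 2 libraries were those of Clu intact in each of these genes. Cyp51 had 35.8 and 44.6 CPM in Clu intact, against 67 and 98.7 CPM in Nkx castrate (log2 fold change -1.04, SE 0.26). Sc5d, the desaturase that makes 7-dehydrocholesterol, had 28.2 and 27.6 CPM in Clu intact, against 44.1 and 65.4 CPM in Nkx castrate (log2 fold change -0.97, SE 0.25). Ebp, which shifts the ring double bond before that step, ran the other way, with 32.9 and 40.4 CPM in Clu intact, against 15.2 and 14.8 CPM in Nkx castrate, 2.44-fold higher (log2 fold change 1.29, SE 0.25). Adjusted p in edgeR's quasi-likelihood test was 0.00223 for Fdft1, 0.00561 for Msmo1, 0.0122 for Ebp, 0.0123 for Sqle, 0.0294 for Cyp51 and 0.0323 for Sc5d. The calls of Fdft1 and Msmo1 held when any library was left out. Ebp was lost without Clu intact 2 (adjusted p 0.126), Sqle without Clu intact 1 or 2 (up to 0.104), Cyp51 when any 1 of the 4 intact libraries was left out (up to 0.202), and Sc5d when any library other than Nkx castrate 1 was left out (up to 0.235). The number of all tested genes that fell also moved in these fits, so a lost call does not single out a gene.

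The other 11 sterol enzymes had log2 fold changes between -0.99 (Hsd17b7) and 0.80 (Dhcr7) in this comparison and did not pass. Hmgcs1 had 32.6 and 35.6 CPM in Clu intact, against 42.7 and 67.9 CPM in Nkx castrate (log2 fold change -0.70, SE 0.25, adjusted p 0.101 in edgeR's test). Idi1 had 8.18 and 7.81 CPM in Clu intact, against 13.9 and 16.6 CPM in Nkx castrate (log2 fold change -0.93, SE 0.31, adjusted p 0.0783). Lss had 20.1 and 24.9 CPM in Clu intact, against 42.9 and 30.5 CPM in Nkx castrate (log2 fold change -0.71, SE 0.25, adjusted p 0.0949). None of these 3 overlapped between the groups, and in each the Clu intact libraries were the lower ones. Pmvk (-0.34), Mvd (-0.09), Nsdhl (0.04), Fdps (0.07), Tm7sf2 (0.33) and Mvk (0.62) lay within that range on the log2 scale.

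Of the regulators, Srebf2 and Insig1 fell and Stard4 rose in Clu intact against Nkx castrate. Srebf2 had 138 and 146 CPM in Clu intact, against 271 and 276 CPM in Nkx castrate, 1.93-fold lower (log2 fold change -0.95, SE 0.16, adjusted p 0.00672 in edgeR's test). Insig1 had 19.7 and 15.4 CPM in Clu intact, against 39.5 and 41.8 CPM in Nkx castrate (log2 fold change -1.21, SE 0.24, adjusted p 0.0123). The replicates of a group lay close together in both genes, and both calls were lost without Clu intact 1 or 2 (adjusted p up to 0.0876 for Srebf2 and 0.153 for Insig1). Stard4 had 43.4 and 44.4 CPM in Clu intact, against 14.9 and 12.3 CPM in Nkx castrate, 3.23-fold higher (log2 fold change 1.69, SE 0.23, adjusted p 0.00284), a call kept in every leave-out fit. Srebf1 had 184 and 178 CPM in Clu intact, against 287 and 322 CPM in Nkx castrate, without overlap (log2 fold change -0.75, SE 0.26, adjusted p 0.0891 in edgeR's test and 0.0312 in DESeq2). In the GENCODE M21 annotation Srebf1 shares 109 exon bases with Rai1 on the opposite strand, which fell by 0.96 on the log2 scale in the same comparison (adjusted p 0.0101), and the strand setting of the counting is not given. Scap had a log2 fold change of 0.28 and did not pass.

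In the fatty acid arm Fads1 and Fads2 fell and Elovl5 rose in Clu intact against Nkx castrate as well. Fads2 had 8.35 and 9.31 CPM in Clu intact, against 51 and 58.5 CPM in Nkx castrate, 6.19-fold lower (log2 fold change -2.63, SE 0.38). Fads1 had 8.27 and 8.47 CPM in Clu intact, against 35.5 and 33.3 CPM in Nkx castrate (log2 fold change -2.04, SE 0.22). Elovl5 had 97.2 and 114 CPM in Clu intact, against 40.4 and 27.5 CPM in Nkx castrate, 3.11-fold higher (log2 fold change 1.64, SE 0.24). No library of 1 group reached those of the other in any of the 3 genes. Adjusted p in edgeR's test was 0.00112 for Fads1, 0.00368 for Fads2 and 0.00375 for Elovl5, and all 3 calls held when any library was left out. The median log2 fold change of the arm was -0.08, with 3 lower and 3 higher genes without overlap. Over all tested genes 30% were lower and 31.5% higher without overlap, near the shares in the arm. Scd1 had 94.9 and 117 CPM in Clu intact, against 123 and 100.2 CPM in Nkx castrate, and Fasn 456 and 618 CPM in Clu intact, against 494 and 669.9 CPM in Nkx castrate. Both overlapped, with log2 fold changes of -0.08 and -0.12. Acaca (0.09), Acly (0.35), Scd2 (0.32) and Elovl6 (-0.82) did not pass either.

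Within the Nkx line, the marked cells of castrate males were set against those of intact males. When Cre was induced is not given, so a change within cells and a change in which cells were marked cannot be told apart. Of the 31 genes, 3 differed, a share near that of all tested genes, of which 4.02% rose and 4.59% fell. In the sterol arm 1 gene, Sc5d, rose and 0 fell, in the fatty acid arm Scd1 fell, and of the regulators Stard4 fell. The median log2 fold change was -0.01 for the sterol arm and -0.24 for the fatty acid arm, against 0.05 over all genes. Without overlap between libraries, 5 sterol enzymes were lower and 3 higher, and 4 fatty acid genes lower and 1 higher, against 24.6% and 25.4% of all genes. Sc5d had 44.1 and 65.4 CPM in Nkx castrate, against 26 and 27.3 CPM in Nkx intact, 2.05-fold higher (log2 fold change 1.04, SE 0.25, adjusted p 0.0418 in edgeR's test). Stard4 had 14.9 and 12.3 CPM in Nkx castrate, against 40.7 and 48.5 CPM in Nkx intact, 3.28-fold lower (log2 fold change -1.71, SE 0.23, adjusted p 0.00488). Scd1 had 123 and 100.2 CPM in Nkx castrate, against 224 and 177 CPM in Nkx intact (log2 fold change -0.85, SE 0.20, adjusted p 0.0425). The groups did not overlap in these 3 genes. The Stard4 call was lost without Nkx intact 2 (adjusted p 0.0596). The Sc5d call was lost when any library other than Nkx castrate 1 was left out, with adjusted p up to 0.227, and its log2 fold change lay between 0.72 and 1.30. The Scd1 call was lost when any 1 of the 4 intact libraries was left out (up to 0.258). Over the fits with a library left out, the log2 fold change of Stard4 lay between -1.86 and -1.59 and that of Scd1 between -1.01 and -0.68. The part of stromal RNA in these differences was not tested. A fit without Nkx castrate 1, the library with the most stromal RNA, keeps only 1 castrate library and cannot decide it.

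Apart from Sc5d, the sterol enzymes that fell in Clu intact did not pass between the Nkx groups. Sqle had 67.2 and 57.7 CPM in Nkx castrate, against 47.8 and 77 CPM in Nkx intact (log2 fold change 0.00, SE 0.27). Cyp51 had 67 and 98.7 CPM in Nkx castrate, against 72 and 94.8 CPM in Nkx intact (log2 fold change -0.01, SE 0.25). Msmo1 had 70.6 and 117 CPM in Nkx castrate, against 89.7 and 107 CPM in Nkx intact (log2 fold change -0.07, SE 0.26). Their libraries overlapped. Fdft1 was higher in both Nkx castrate libraries (90.2 and 95.7 CPM in Nkx castrate, against 71.5 and 66.3 CPM in Nkx intact) and did not pass (log2 fold change 0.43, SE 0.20, adjusted p 0.235 in edgeR's test). Srebf2 ran the same way, with 271 and 276 CPM in Nkx castrate, against 216 and 199 CPM in Nkx intact (log2 fold change 0.40, SE 0.16, adjusted p 0.174). Ebp had 15.2 and 14.8 CPM in Nkx castrate, against 22.3 and 29 CPM in Nkx intact (log2 fold change -0.77, SE 0.25, adjusted p 0.109), both castrate libraries being lower. The remaining sterol enzymes had log2 fold changes between -0.96 (Mvk) and 1.15 (Nsdhl), and the remaining regulators between -0.49 (Scap) and 0.31 (Srebf1). Nsdhl passed without Nkx castrate 1 (adjusted p 0.024).

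Fasn was the fatty acid gene nearest to a rise after castration. It had 494 and 669.9 CPM in Nkx castrate, against 375 and 335 CPM in Nkx intact, with no overlap (log2 fold change 0.71, SE 0.23, adjusted p 0.104 in edgeR's test). It passed in DESeq2 (adjusted p 0.0253), with no low-count filter (0.0141) and without Nkx castrate 1 (0.00549, log2 fold change 0.92). Acaca, the enzyme before it in the pathway, had 40.3 and 42.7 CPM in Nkx castrate, against 58.4 and 71.6 CPM in Nkx intact (log2 fold change -0.65, SE 0.24, adjusted p 0.159). The 2 consecutive enzymes thus lay on opposite sides of Nkx intact without overlap, neither past the test. Fads1 had 35.5 and 33.3 CPM in Nkx castrate, against 51.8 and 50.4 CPM in Nkx intact (log2 fold change -0.57, SE 0.21, adjusted p 0.143). Fads2 had 51 and 58.5 CPM in Nkx castrate, against 55.5 and 25.3 CPM in Nkx intact (log2 fold change 0.44, SE 0.35), overlapping through Nkx intact 1. Acly (-0.19), Scd2 (-0.20), Elovl5 (-0.24) and Elovl6 (-0.89) did not pass.

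**Figure D4:**
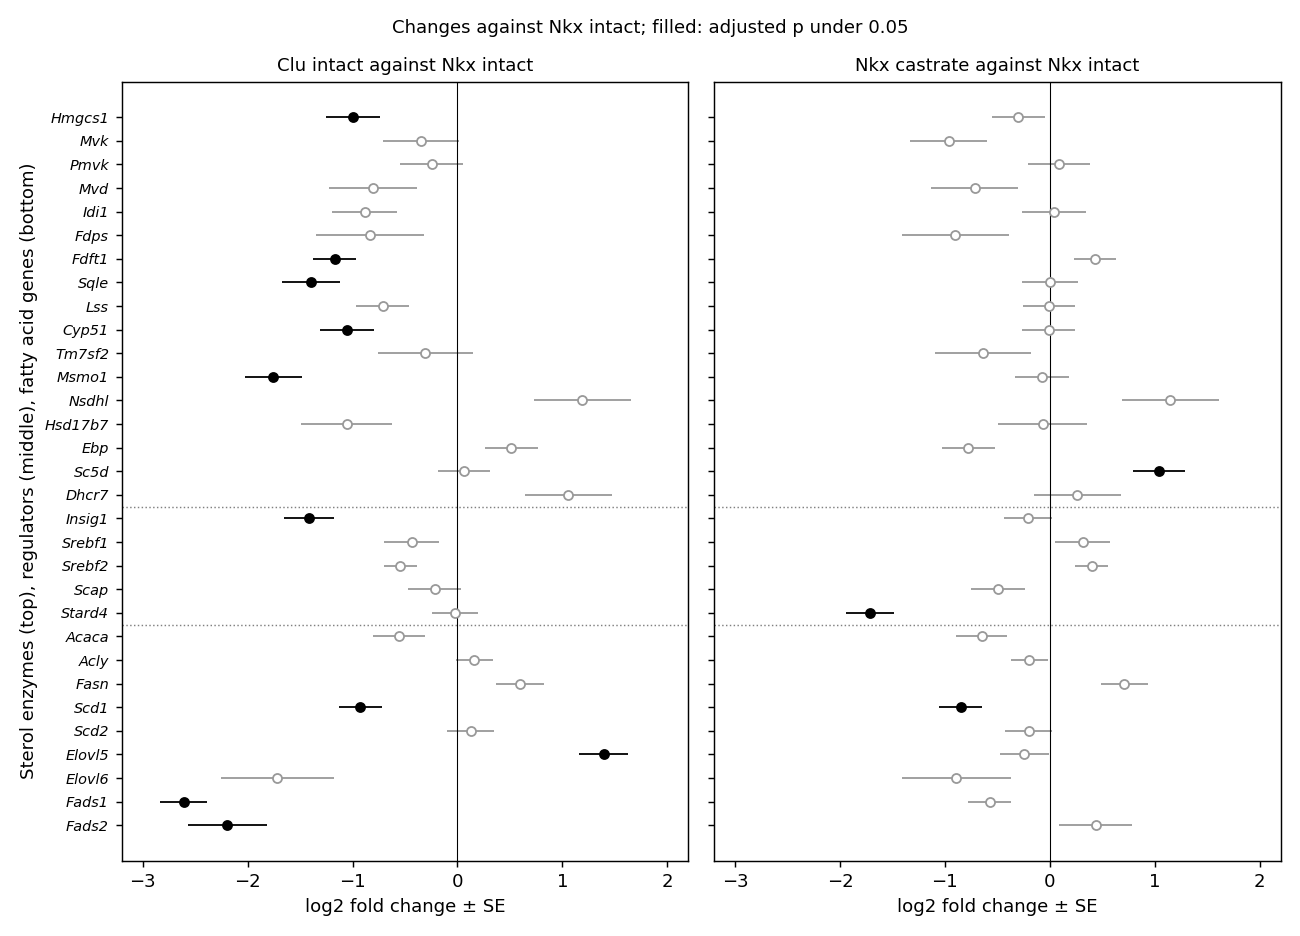
Log2 fold change with its SE of all 31 genes in Clu intact against Nkx intact (left) and Nkx castrate against Nkx intact (right), with filled points for an adjusted p under 0.05 in edgeR's test. Filled points number 10 on the left, from Fads1 (-2.61) to Elovl5 (1.39), and 3 on the right (Sc5d, Stard4 and Scd1). Both panels share the Nkx intact libraries.

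Genes of neighbouring lipid pathways were counted from lists of their own. Over all tested genes, 4.02% rose and 4.59% fell after castration, 6.29% rose and 5% fell in Clu intact against Nkx intact, and 8.82% rose and 8.1% fell in Clu intact against Nkx castrate. A count of 0 or 1 in a list of this size is near these shares. Among 17 tested genes of other acyl chain synthesis and activation, 1 rose and 2 fell after castration, 2 rose and 0 fell in Clu intact against Nkx intact, and 5 rose and 1 fell in Clu intact against Nkx castrate, with medians of -0.06, 0.32 and 0.51 on the log2 scale. The long-chain acyl-CoA synthetases, which activate fatty acids, parted from each other. Acsl5 was highest in Clu intact, with 114 and 145 CPM for Clu intact, 54.6 and 72.6 CPM for Nkx castrate, and 56.1 and 60.3 CPM for Nkx intact. Acsl3 had 100.1 and 73 CPM for Clu intact, 277 and 428 CPM for Nkx castrate, and 101 and 138 CPM for Nkx intact, and rose in Nkx castrate against Nkx intact (log2 fold change 1.56, SE 0.28, adjusted p 0.0142 in edgeR's test). Acsl1 had 84.6 and 91 CPM for Clu intact, 21 and 14 CPM for Nkx castrate, and 53.7 and 66.3 CPM for Nkx intact, and fell in that comparison (log2 fold change -1.77, SE 0.25, adjusted p 0.0063), as did Acsl4 (log2 fold change -1.17, SE 0.19, adjusted p 0.0106). Against Nkx castrate, Clu intact was 4.99-fold higher in Acsl1 and 4.07-fold lower in Acsl3 (adjusted p 0.00128 and 0.00319), and both of these calls held when any library was left out. Without Nkx intact 1 or Nkx intact 2, the castration calls of Acsl3 and Acsl4 were lost (adjusted p up to 0.145 and 0.0944 in edgeR's test), and without Nkx intact 2 that of Acsl1 (0.0739). Malic enzyme, Me1, which supplies NADPH for lipid synthesis, rose in Clu intact against Nkx intact (50.4 and 61.2 CPM in Clu intact, against 22.8 and 22.2 CPM in Nkx intact, log2 fold change 1.31, SE 0.24, adjusted p 0.0123), and lost the call when any 1 of these 4 libraries was left out.

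Soat1 and Acadl separated Nkx castrate from both intact groups. Soat1, which esterifies cholesterol for storage, had 9.62 and 9.78 CPM for Clu intact, 74.2 and 123 CPM for Nkx castrate, and 25.3 and 12.8 CPM for Nkx intact. It was 5.16-fold higher in Nkx castrate than in Nkx intact (adjusted p 0.009 in edgeR's test, 0.0844 without Nkx intact 2) and 10.2-fold lower in Clu intact than in Nkx castrate (adjusted p 0.00172, kept with any 1 library left out). Among the 10 genes of LXR, efflux, storage and uptake, 1 rose and 1 fell after castration, 2 rose and 0 fell in Clu intact against Nkx intact, and 1 rose and 1 fell in Clu intact against Nkx castrate. Npc2, a lysosomal cholesterol carrier, was the other in both castrate comparisons, with 88.3 and 92.4 CPM for Clu intact, 42.8 and 48.5 CPM for Nkx castrate, and 108 and 79.6 CPM for Nkx intact (log2 fold change -1.04 in Nkx castrate against Nkx intact and 0.99 in Clu intact against Nkx castrate, adjusted p 0.0224 and 0.016). The 2 that rose in Clu intact against Nkx intact were Mylip, a ubiquitin ligase of lipoprotein receptors (log2 fold change 0.93, SE 0.20, adjusted p 0.0255), and Scarb1, a receptor of high-density lipoprotein (log2 fold change 1.18, SE 0.28, adjusted p 0.0347). Acadl, the long-chain acyl-CoA dehydrogenase, had 112 and 123 CPM for Clu intact, 46.6 and 52.3 CPM for Nkx castrate, and 102 and 102 CPM for Nkx intact, and was 2.06-fold lower after castration (adjusted p 0.0102, up to 0.102 without Nkx intact 1 or Nkx intact 2) and 2.38-fold higher in Clu intact than in Nkx castrate (adjusted p 0.00307, kept with any 1 library left out). Of the 18 fatty acid oxidation genes it alone changed after castration, 0 changed in Clu intact against Nkx intact, and Acadm, the medium-chain enzyme, joined it among the 2 that rose in Clu intact against Nkx castrate (log2 fold change 0.96, SE 0.27, adjusted p 0.0466). The calls of Mylip and Scarb1, and that of Npc2 after castration, were lost when any 1 of the 4 intact libraries was left out (adjusted p up to 0.218), that of Npc2 against Nkx castrate without Clu intact 1 or 2 (0.12), and that of Acadm when any library other than Nkx castrate 2 was left out (0.228).

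Genes of fat storage rose in Clu intact against Nkx intact in 2 of 12 cases and fell in 0 (6.29% and 5% of all tested genes), with a median of 0.09 on the log2 scale. Dgat2, which makes the last bond of triglyceride, had 18.6 and 24 CPM for Clu intact, 3.82 and 5.03 CPM for Nkx castrate, and 2.49 and 4.05 CPM for Nkx intact (6.51-fold higher in Clu intact than in Nkx intact, adjusted p 0.00774, and log2 fold change 2.27, SE 0.42 against Nkx castrate, adjusted p 0.0101, in edgeR's test). Plin2, a lipid droplet coat protein, had 17.5 and 19.1 CPM for Clu intact, 8.53 and 5.91 CPM for Nkx castrate, and 5.55 and 6.32 CPM for Nkx intact (log2 fold change 1.62, SE 0.37 against Nkx intact, adjusted p 0.0296). Both Clu intact libraries were above all 4 Nkx libraries in both genes. Leaving out a single library ended these calls (Dgat2 against Nkx intact without Clu intact 2 or Nkx intact 1, adjusted p up to 0.0787, Dgat2 against Nkx castrate without Clu intact 2, 0.111, and Plin2 against Nkx intact with any 1 of the 4 intact libraries left out, up to 0.206). Adipocyte marker RNA moved with them. The 10 adipocyte markers added up to 76.1 and 29 CPM for Clu intact, 9.65 and 1.03 CPM for Nkx castrate and 7.27 and 1.98 CPM for Nkx intact, and 1 of the 4 tested rose in Clu intact against Nkx intact. Fabp4, which endothelial cells also make, held 62.1 and 21.3 CPM of the sums in Clu intact. Car3 had 8.77 and 3.2 CPM in Clu intact, against 0 and 0 CPM in Nkx intact. Cfd had 3.88 and 2.82 CPM in Clu intact, against 0.191 and 0 CPM in Nkx intact. Cidec was lower in Clu intact (0.675 and 0.376 CPM, against 1.15 and 0.988 CPM in Nkx intact). The adipocyte hormones Adipoq and Lep had 0 counts in both Clu intact libraries. The part of adipocyte RNA in the Dgat2 and Plin2 differences was not tested. Against Nkx castrate, Dgat2 and Plin2 were the 2 of 12 that rose in Clu intact (8.82% of all tested genes), Plin2 with log2 fold change 1.34, SE 0.36 (adjusted p 0.0414, lost when any library other than Nkx castrate 1 was left out, up to 0.258). The 2 that fell, where 8.1% of all tested genes did, were Lpin2 and Gpam (log2 fold change -1.21, SE 0.24 and log2 fold change -0.95, SE 0.26, adjusted p 0.0128 and 0.041). After castration 0 of the 12 genes changed. Of 9 genes of SREBP processing and degradation, 1, the sterol-sensing degradation factor Erlin2, rose in Clu intact against both Nkx groups (log2 fold change 0.95, SE 0.24 against Nkx intact and log2 fold change 0.98, SE 0.23 against Nkx castrate, adjusted p 0.0391 and 0.0262). Of 9 genes of the isoprenoid branch, Ggps1 fell in Clu intact against Nkx intact (log2 fold change -1.03, SE 0.27, adjusted p 0.0483) and Nus1 rose against Nkx castrate (log2 fold change 0.71, SE 0.20, adjusted p 0.0471). The calls of Erlin2 and Ggps1 were lost when any 1 of the 4 intact libraries was left out (adjusted p up to 0.304), that of Nus1 when any library other than Nkx castrate 2 was left out (0.252), that of Lpin2 without Clu intact 1 or 2 (0.107), and that of Gpam when any library other than Nkx castrate 1 was left out (0.296). Neither of the last 2 lists had a gene that changed after castration.

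Markers of cell types also moved with all 3 comparisons. Over all tested genes 4.02% rose and 4.59% fell after castration. In Clu intact 6.29% rose and 5% fell against Nkx intact, and 8.82% rose and 8.1% fell against Nkx castrate. The 7 proximal luminal markers added up to 5746 and 6592 CPM for Clu intact, 2163 and 3212 CPM for Nkx castrate and 689 and 771 CPM for Nkx intact, and 7 of 7 rose in Clu intact against Nkx intact. After castration 4 of these 7 rose and 1 fell, and 5 rose and 0 fell in Clu intact against Nkx castrate. The 10 secretory luminal markers added up to 11139 and 9585 CPM for Clu intact, 4698 and 5685 CPM for Nkx castrate and 17718 and 22106 CPM for Nkx intact. The members went opposite ways. After castration 6 of the 10 fell and 2, the keratins Krt8 and Krt18, rose. The secreted transglutaminase Tgm4 had 5023 and 3482 CPM for Clu intact, 4.21 and 1.85 CPM for Nkx castrate, and 8396 and 11255 CPM for Nkx intact. Probasin, Pbsn, had 2634 and 1957 CPM for Clu intact, 106 and 112 CPM for Nkx castrate, and 5393 and 6937 CPM for Nkx intact. Krt8 had 1169 and 1441 CPM for Clu intact, 2179.5 and 2558 CPM for Nkx castrate, and 792 and 705 CPM for Nkx intact, and in Nkx castrate Krt18 had 2132 and 2590.3 CPM. The Nkx castrate sums were thus mostly the 2 keratins, with the secretory products low. Of the 10, 6 rose and 2 fell in Clu intact against Nkx castrate, and 2 rose and 3 fell in Clu intact against Nkx intact. The stromal list (fibroblasts and smooth muscle, 10 genes) had 4 higher and 0 lower calls after castration. By log2 fold change 6 of its genes were above 0 and 4 below. The collagen Col1a1 was among the lower, with 46.3 and 6.21 CPM in Nkx castrate, against 79.2 and 72.8 CPM in Nkx intact. The 10 leukocyte markers added up to 41.5 and 44.6 CPM for Clu intact, 436 and 96.6 CPM for Nkx castrate and 193 and 197 CPM for Nkx intact, and 2 of the 8 tested fell in Clu intact against Nkx intact. Of the 8 endothelial markers, 5 rose and 0 fell in Clu intact against Nkx intact. Against Nkx castrate 1 rose and 0 fell, and 0 changed after castration. The part of these cell types in the differences of Clu intact, and in those of Sc5d, Scd1 and Stard4 after castration, was not tested. Fdft1 shares 774 exon bases with Ctsb and Cyp51 166 with Akap9, both on the opposite strand in GENCODE M21, and neither neighbour passed the test in a comparison of Clu intact (log2 fold changes of 0.22 and 0.29 against Nkx intact). Hmgcs1 (557 exon bases), Lss (381), Idi1 (323) and Scap (985) also overlap gene models on the opposite strand, whose levels were not compared. Fdps shares 1124 exon bases with another gene model on its own strand and Tm7sf2 532 with Vps51, so the counts of these enzymes are uncertain.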

How the data were processed

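The authors deposited 1 table of raw read counts by gene symbol, with a column for each of 6 bulk RNA libraries made from 2 ng of RNA of sorted cells. Named per the submitters' processing notes are FastQC 0.11.9, STAR 2.7.9a, featureCounts of Subread 2.0.1, and build GRCm39. Which annotation release and strand setting the counting used, and how multi-mapping reads and molecular identifiers were treated, is not given in the sources used here.

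Analyses used R 4.3.3. The filter filterByExpr of edgeR 4.0.16 kept 13846 of 24498 genes, TMM factors lay between 0.945 and 1.04, and glmQLFit estimated 1 mean per group from all 6 libraries (residual degrees of freedom 3, prior 4.86; coefficient of biological variation 33.7%). For each comparison a two-sided quasi-likelihood test was adjusted by Benjamini-Hochberg over all tested genes, and "rose" or "fell" means an adjusted p under 0.05. A log2 fold change above 0 means that the group named first is higher, and its SE comes from the model. Alternatives were 3 other scalings, omission of the 50 most abundant genes, 2 other low-count filters, DESeq2 1.42.0, voom of limma 3.58.1, fits of the compared groups alone, a block for the replicate number, a 2-fold minimum, and omission of each library. Omission of a library leaves 1 library in its group and changed how many of all genes passed. The 31 genes, the other lists and the markers were chosen with earlier results of these data known. Values are given for every one of the 31 genes that passed a test, for the regulators, for up to 4 genes that passed in each neighbouring list, and for Acsl5 besides. Promoters came from RefSeq (GRCm38.p6), and lengths and overlaps from GENCODE M21, a build other than the authors', so they are descriptions only. A single count was worth 0.0561 to 0.0988 CPM, depending on the library. The driver gene of the Nkx line is not reported here.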

Additional observations from a re-analysis of the deposited data

How the results depend on the processing

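None of the called differences of the 31 genes changed sign under any alternative, and other scalings moved the median of all genes by less than 0.1 on the log2 scale.

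In Nkx castrate against Nkx intact, the sterol genes that rose numbered 1, and 0 with limma-voom and with only the groups compared (0 to 2 with a library left out). Fatty acid genes that rose numbered 0, and 1 with no low-count filter and with DESeq2 (0 to 1). Fatty acid genes that fell numbered 1, and 0 with upper-quartile factors, only the groups compared or a 2-fold minimum (0 to 1). In Clu intact against Nkx intact, sterol genes that fell numbered 5, with limma-voom 3, with a 2-fold minimum 4 and with only the groups compared 6 (0 to 6), those that rose 0 (0 to 1), fatty acid genes that rose 1, and 2 with no low-count filter and with only the groups compared (0 to 2), and those that fell 3, with no low-count filter, DESeq2 or only the groups compared 4 and with a 2-fold minimum 2 (1 to 4). In Clu intact against Nkx castrate, sterol genes that fell numbered 5, with only the groups compared 3, with a 2-fold minimum 4 and with no low-count filter 6 (2 to 6), those that rose 1 (0 to 1), and fatty acid genes that rose 1 (1 to 2). Hmgcs1 and Cyp51 were the sterol genes lost with limma-voom in Clu intact against Nkx intact, and Cyp51 and Sc5d those lost with only the groups compared in Clu intact against Nkx castrate. The cause of these moves was not tested.

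The labels do not link the replicate numbers, and deviations of same-numbered libraries correlated at 0.280, 0.0706 and 0.115 (Clu intact with Nkx castrate, Clu intact with Nkx intact, Nkx castrate with Nkx intact). With the replicate block, the counts of both arms were the same, among them 5 sterol genes that fell in each comparison of Clu intact and 1 that rose after castration.

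Over all genes, 556 rose and 636 fell after castration, against 975 and 957 with DESeq2, 1197 and 1103 with no low-count filter and 297 and 374 with only the groups compared. In Clu intact against Nkx intact 871 rose and 692 fell, against 1277 and 1092, 1467 and 1198, and 1761 and 1548 in the same order. In Clu intact against Nkx castrate 1221 rose and 1121 fell, against 1600 and 1682, 1782 and 1736, and 850 and 766. With a library left out these counts lay between 72 and 1220, 137 and 1323, 214 and 1790, 157 and 1561, 417 and 2010, and 270 and 1844.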
